A study of Bos taurus with 48 samples.

Results

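This section describes 67 genes whose mRNA increased in whole blood of both Holstein-Friesian (H-F) and Jersey (J) bull calves between d -14 and d 8 relative to weaning, out of 24616 annotated genes, of which 12382 had a mean of at least 1 CPM (read counts scaled to a common library size) over the 48 libraries. The authors, who left out a J calf, reported no gene as differentially expressed between days in either breed. The 67 members were chosen here by their measured change. In each calf, log2(CPM + 0.5) at d -14 was subtracted from that at d 8, and a gene was a member if the mean of the 16 changes was at least 0.35, the change was above 0 in at least 14 of 16 calves, and the mean was above 0 in each breed. By that rule the d 8 minus d -14 change of a member is a selected value. It is given as a description with no test, and the same holds for its parts, d 1 minus d -14 and d 8 minus d 1. Of these genes, 13 could be paired with a name, and the other 54 are known here only by their Ensembl identifier.

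Blood came from 8 H-F and 8 J bull calves that were housed together, fed milk replacer and concentrate individually, and weaned by a stepwise cut in milk replacer that ended on d 0. All 16 calves were weaned this way, and the study had no group that stayed on milk. The d -14 samples were taken just before the cut began, the d 1 samples a day after the last milk, and the d 8 samples a week later, so weaning, time and age of the calf cannot be told apart. The H-F calves came from 1 farm and were younger and heavier on arrival than the J calves, which came from 2 farms. Before weaning J calves were offered concentrate without limit and H-F calves a set amount, which by the authors' account they never finished. Passive immunity from the dam was greater in J calves. Breed therefore cannot be told apart from origin, age, feed allowance or passive immunity. Each calf gave 3 libraries, which are separate samples of the same animal.

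Whole blood RNA comes mostly from circulating leukocytes, with a part from platelets. Neutrophils and monocytes respond to microbial products with complement proteins, pentraxins and interferon-stimulated genes, B cells carry CD22 and MS4A1 (CD20) on their surface, and checkpoint ligands such as PD-L1 restrain T cells. In blood of this kind a higher mRNA value can reflect more cells of a type or more RNA per cell, and these cannot be told apart in bulk libraries.

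Libraries held 26160617 to 39017662 counts on genes, with a median of 33251886. J calf 85 stood apart from the other calves. The mean absolute distance of its log2 CPM from the group median was 0.405 at d 1 and 0.332 at d 8, compared with 0.115 to 0.304 in the 45 libraries of the other calves, while at d -14 it was 0.166. The study left out a J calf that neither the labels nor its text name. All 16 calves were kept here because the rule was set over 16, and results that rest on J calf 85 are also given without it.

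Among the 67 members, 9 increased in 16 of 16 calves, 25 in 15 and 33 in 14. The median member changed by 0.44 on the log2 scale, while the median of all 12382 genes was -0.003. Scaled to the spike-ins instead of library totals, the members' median was 0.28 and that of all genes -0.18, and 13 genes met the rule, 12 of them among the 67. In H-F calves the median over members was 0.50, in J calves 0.44, and the mean change was larger in H-F for 42 members and larger in J for 25. Just inside the threshold were ENSBTAG00000012205 (0.3535) and ENSBTAG00000011409 (0.3539), and just outside were ENSBTAG00000042536 (0.348) and ENSBTAG00000001945 (0.3456). A further 64 genes passed the mean change but not the count of calves.

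Calves differed in how much of the set they showed. All 67 members were higher at d 8 than at d -14 in 4 calves, H-F 32, H-F 48, J 60 and J 85, and in J calf 77 only 43 members were higher. The median change over members was 0.90 in H-F 48 and in J 85, 0.75 in J 9, 0.20 in H-F 56 and 0.13 in J 77. In every calf the median of all genes stayed between -0.02 and 0.03. Without J calf 77 the same rule, asking for 13 of 15 calves, found 111 genes, 66 of them among the 67. Without J calf 85 it found 60 genes, and 58 of these were among the 67.

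**Figure D1:**
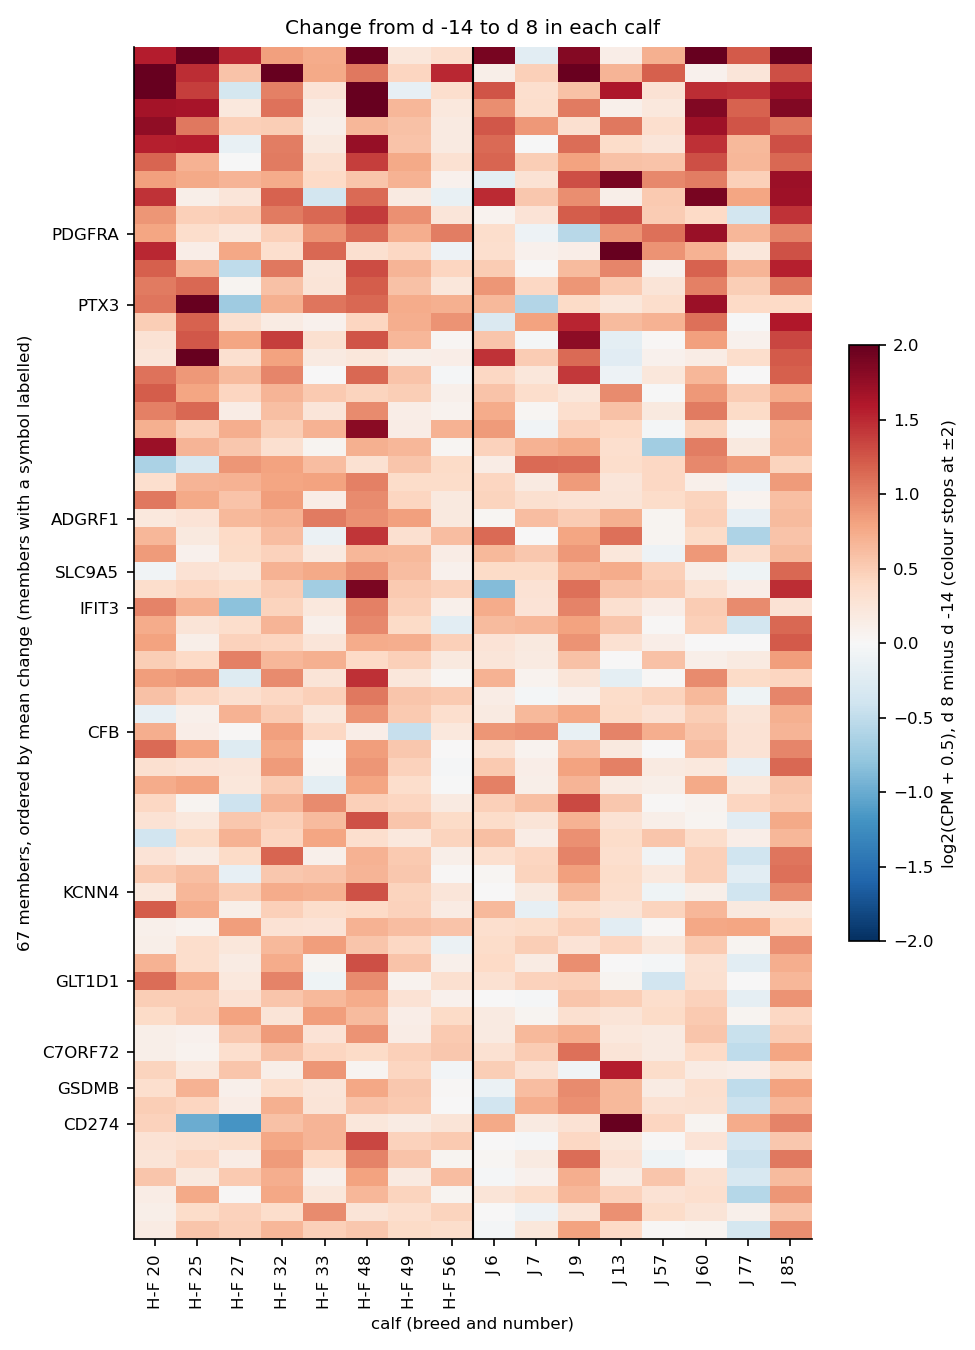
Heat map of the 67 members (rows, by mean change) in the 16 calves (columns, H-F left of the line and J right), where colour gives log2(CPM + 0.5) at d 8 minus that at d -14. J calf 77 shows the most blue cells, with 43 of 67 members higher at d 8, and H-F 32, H-F 48, J 60 and J 85 show none.

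The largest mean changes were in 2 genes without a name. ENSBTAG00000008951 had lowest, median and highest values of 4.44, 9.58 and 17.6 CPM at d -14 in H-F calves and 9.92, 20.8 and 37.98 CPM at d 8. In J calves it had 2.39, 5.34 and 19.9 CPM at d -14 and 6.25, 13.9 and 39.4 CPM at d 8. The groups overlapped in both breeds, and the mean change was 1.24 ± 0.87 (SD, n = 16). ENSBTAG00000047632 increased in 16 of 16 calves by 1.00 ± 0.69, and in H-F calves from a median of 9.90 to one of 24.5 CPM. Of the members with many counts, ENSBTAG00000006505 had a mean of 553 CPM over the 48 libraries and changed by 0.43 ± 0.35, from medians of 467 and 458 CPM in H-F and J calves at d -14 to 668 and 626 CPM at d 8. CPM is not divided by gene length, so levels are compared here between samples of a gene and not between genes.

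Among the members with a name were 3 genes of innate defence. IFIT3, an interferon-induced protein that acts against viral RNA, changed by 0.46 ± 0.47 and was higher at d 8 in 15 of 16 calves. Its lowest, median and highest values in J calves were 69.8, 131 and 187.6 CPM at d -14, 159, 196 and 298 CPM at d 1, and 131.7, 191 and 306 CPM at d 8. In H-F calves they were 119, 195 and 341 CPM at d -14, 143, 241 and 394 CPM at d 1, and 114, 260 and 469 CPM at d 8, with H-F calf 27 the lowest at d 8. The J groups at d -14 and d 1 overlapped only between 158.6 and 187.6 CPM, whereas the H-F ranges overlapped along most of their length.

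PTX3, a secreted pentraxin that binds microbes and engages complement, changed by 0.66 ± 0.74. In H-F calves it ran from 0.386 to 5.74 CPM (median 1.41) at d -14 and from 1.09 to 12.6 CPM (median 1.78) at d 8. In J calves it ran from 0.0907 to 0.904 CPM (median 0.265) at d -14 and from 0.28 to 2.26 CPM (median 0.505) at d 8. The spread of PTX3 within a day was wider than its change, and the 2 highest H-F values at d 8, 12.6 and 12.3 CPM, were of calves 20 and 25.

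CFB, complement factor B of the alternative pathway, changed by 0.61 ± 0.38 in J calves and 0.25 ± 0.41 in H-F calves. In J calves it had a median of 3.87 CPM at d -14 (2.95 to 4.56), 5.07 CPM at d 1 (4.27 to 6.68) and 6.65 CPM at d 8 (4.06 to 8.80). In H-F calves the medians were 6.59, 7.76 and 7.43 CPM, and the d 8 range of 3.70 to 12.8 CPM took in the whole d -14 range of 4.53 to 9.17 CPM.

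CD274 encodes PD-L1, the ligand through which other cells restrain T cells that carry PD-1. Its membership rested on J calves. In these the mean change was 0.71 ± 0.69, with 8 of 8 calves up and medians of 9.37, 13.2 and 14.0 CPM on the 3 days. In H-F calves the mean change was 0.02 ± 0.71, since calves 25 and 27 fell from 17.03 to 8.33 CPM and from 17.3 to 7.40 CPM while the other 6 rose. The difference between breeds in this change was not tested, because the rule used it.

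**Figure D2:**
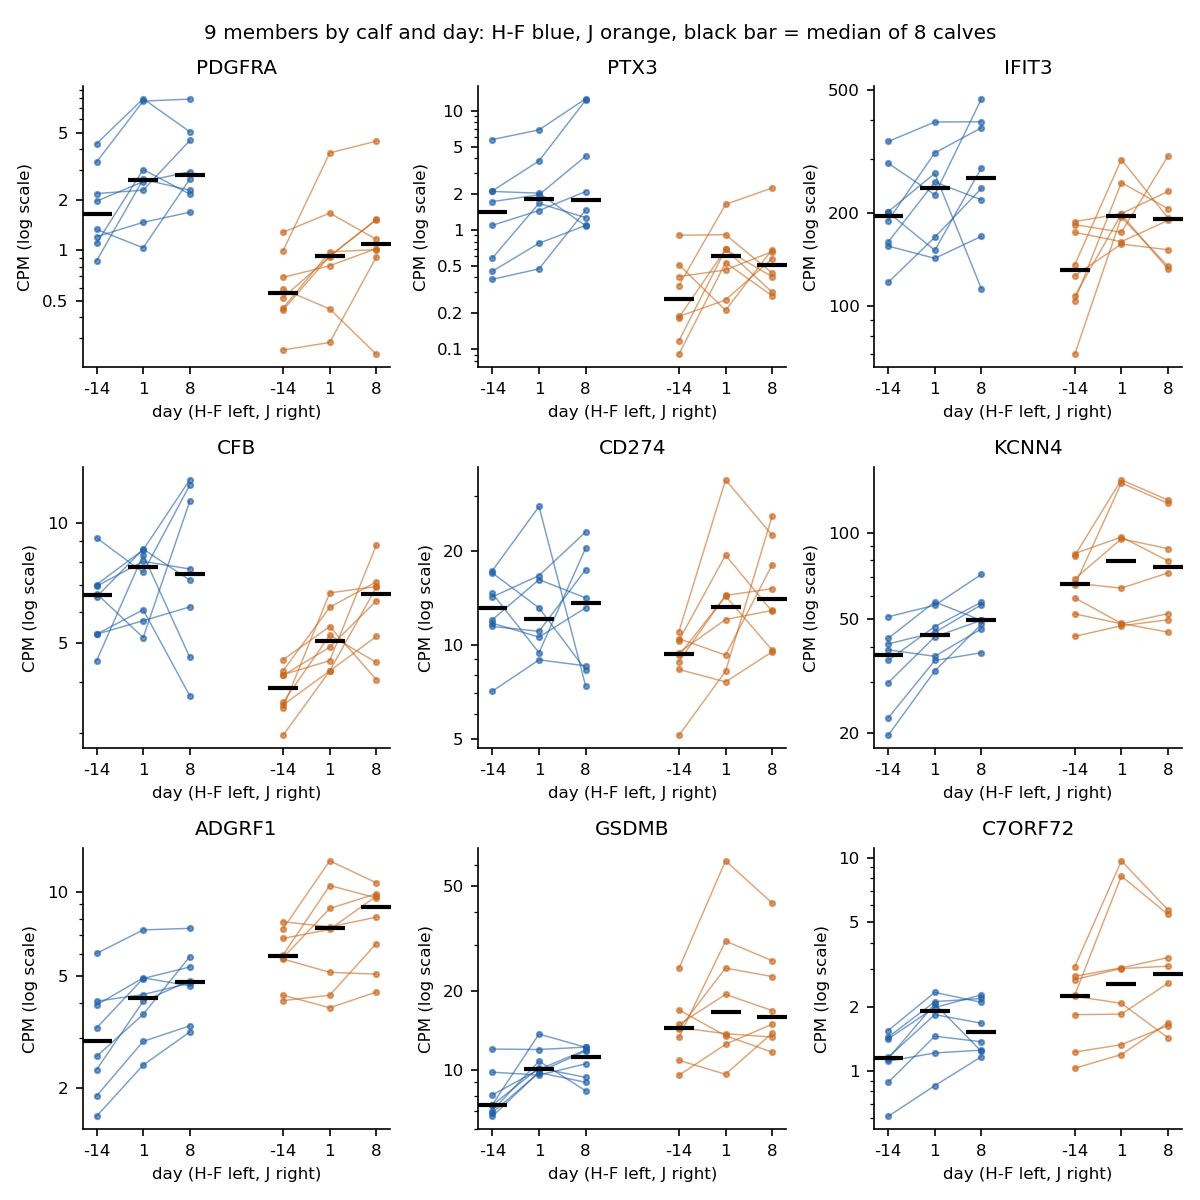
CPM (log scale) of 9 members with a symbol in each calf at d -14, d 1 and d 8, with lines joining the 3 libraries of a calf, H-F in blue, J in orange and the median of 8 calves as a black bar. For PDGFRA and PTX3 the J medians lie below the H-F medians on each day, for KCNN4, ADGRF1, GSDMB and C7ORF72 above.

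Of the members that encode receptors, PDGFRA is a tyrosine kinase that binds platelet-derived growth factor, and ADGRF1 (GPR110) belongs to the adhesion class of G protein-coupled receptors. PDGFRA changed by 0.67 ± 0.54. It had H-F medians of 1.64, 2.60 and 2.79 CPM and J medians of 0.555, 0.921 and 1.09 CPM on the 3 days, and all 8 H-F and 6 of 8 J calves were higher at d 8. ADGRF1 changed by 0.48 ± 0.35, with H-F medians of 2.92, 4.18 and 4.76 CPM and J medians of 5.87, 7.41 and 8.80 CPM. At these levels counts per library were low for PDGFRA and PTX3, and these are among the less precise members.

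The set also held an ion channel and an ion exchanger. KCNN4, the calcium-activated potassium channel that sets the membrane potential of activated lymphocytes, was higher at d 8 in 8 of 8 H-F and 6 of 8 J calves. Its H-F medians were 37.4, 44.05 and 49.4 CPM and its J medians 66.03, 79.6 and 76.04 CPM. In J calves 9 and 85 it reached 153 and 149 CPM at d 1, where the other J calves had 47.3 to 96.6 CPM. SLC9A5, a sodium/hydrogen exchanger, had H-F medians of 2.25, 2.82 and 3.36 CPM and J medians of 3.91, 5.38 and 5.12 CPM, and J calf 85 had 11.6, 22.4 and 26.5 CPM on the 3 days, the highest value of each.

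GSDMB belongs to the gasdermins, which form pores in membranes when cleaved. Its H-F values ran from 6.69 to 12.05 CPM (median 7.39) at d -14, from 9.60 to 13.7 CPM (median 10.1) at d 1 and from 8.36 to 12.2 CPM (median 11.2) at d 8. In J calves the medians were 14.5, 16.6 and 15.9 CPM, and J calf 85 had 24.4, 62.5 and 43.2 CPM. C7ORF72, named after an open reading frame of a human chromosome, had J medians of 2.25, 2.55 and 2.84 CPM, with 8.20 and 9.67 CPM in J calves 9 and 85 at d 1 and at most 3.04 CPM in the other J calves. GLT1D1, which encodes a protein with a glycosyltransferase domain, changed by 0.39 ± 0.42, with H-F medians of 1.69, 2.07 and 2.43 CPM and J medians of 1.09, 1.25 and 1.28 CPM.

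The last members with a description were ENSBTAG00000024492, described as similar to the tyrosine phosphatase PTPN11, and ENSBTAG00000024947, a homolog of a testicular cell adhesion molecule. ENSBTAG00000024492 changed by 0.76 ± 0.54 and went from 5.40 to 7.42 CPM in H-F calves at d -14 to 7.53 to 12.3 CPM at d 8, so these H-F groups did not overlap. The rule had selected this gene on that change. ENSBTAG00000024947 changed by 0.39 ± 0.27, with H-F medians of 1.25, 1.43 and 1.70 CPM and J medians of 2.21, 2.45 and 2.78 CPM.

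All 67 members were higher on average at d 1 than at d -14, by a median of 0.35, and 63 of 67 were higher at d 8 than at d 1, by a median of 0.14. The mean fell from d 1 to d 8 in the other 4, among them C7ORF72 and GSDMB, where it fell by 0.05 and by 0.04. The change by d 1 was unevenly shared between calves. Its median over members was 1.11 in J calf 85 and 0.88 in J calf 9, and 0.04 to 0.56 in the other 14 calves. In the 6 J calves other than 9 and 85, the medians over members of the calf means were 0.24 at d 1 and 0.34 at d 8.

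**Figure D3:**
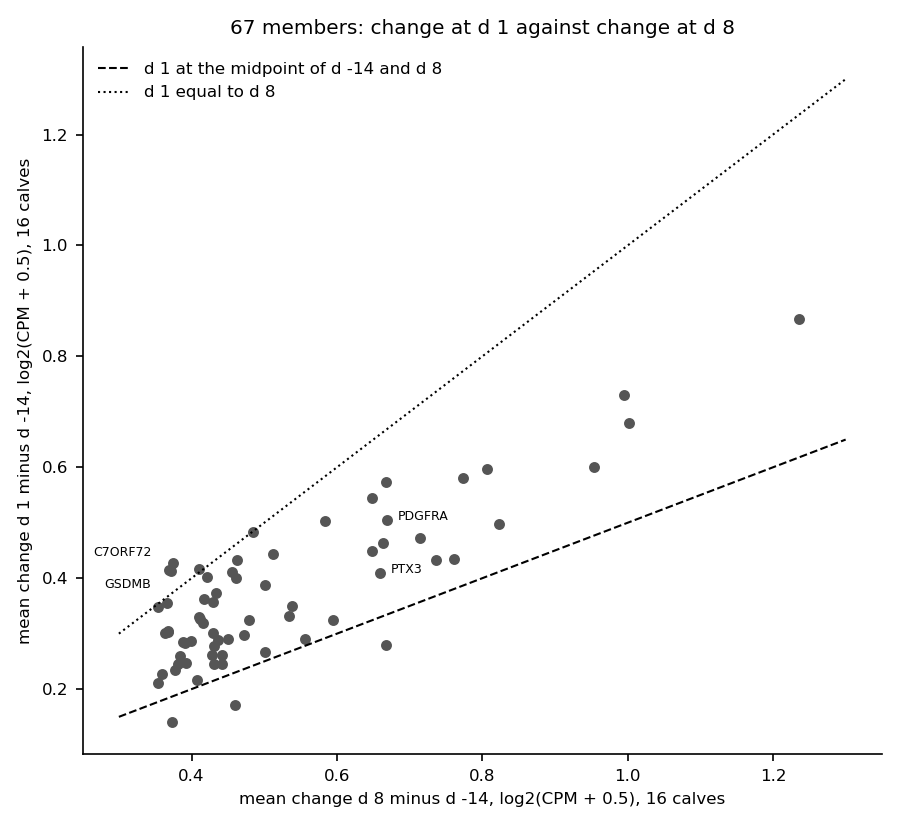
Mean change over 16 calves at d 1 (vertical axis) against that at d 8 (horizontal axis), both relative to d -14 in log2(CPM + 0.5), with a point for each of the 67 members. In all, 64 of 67 points lie above the dashed line, on which d 1 is the midpoint of d -14 and d 8, and C7ORF72 and GSDMB are among the 4 above the dotted line, on which d 1 equals d 8.

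Whether d 1 differed from the midpoint of d -14 and d 8 was tested, since the weights of this contrast are orthogonal to those of the change that chose the members. That frees it from the selection only if the days vary equally and are equally related within a calf. J calf 85 stood apart at d 1 and d 8 but not at d -14, so a count above the midpoint can partly follow from the rule. The contrast asks whether a gene had moved by more or less than an even course by the day after milk ended. On log2(CPM + 0.5), 64 of 67 members lay above their midpoint at d 1, with a median of 0.11, compared with 6306 of 12382 genes and a median of 0.001. In edgeR's quasi-likelihood fit, with Benjamini-Hochberg adjustment over 12717 genes, 0 of 67 members had an adjusted p under 0.1, and 0% of all genes tested did. At an unadjusted p under 0.05 there were 5 members and 235 genes. DESeq2 and limma-voom also called 0 members. At an unadjusted p under 0.05 DESeq2 had 5 members and 243 genes, and limma-voom had 11 members and 876 genes. With calf as a block, 0 members were called again, with 14 members and 1132 genes at an unadjusted p under 0.05 and a smallest adjusted p of 0.507 among members.

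C7ORF72 and GSDMB had estimates against the midpoint of 0.43 ± 0.20 and 0.31 ± 0.15 (log2 fold change ± standard error, SE) with unadjusted p of 0.0352 and 0.0447 in edgeR's quasi-likelihood fit. Neither passed the adjustment. Without J calf 85 the count of members above the midpoint on log2(CPM + 0.5) was 62 with a median of 0.08, and without J calves 9 and 85 it was 52 with a median of 0.05. In H-F calves alone 45 members lay above the midpoint (median 0.05), and in J calves alone 62 (median 0.19), which became 47 (median 0.04) in the 6 J calves other than 9 and 85. The breed difference in this contrast was tested in edgeR's quasi-likelihood fit, where 0 members had an adjusted p under 0.1, beside 0% of all genes, and 0 members and 331 genes had an unadjusted p under 0.05. DESeq2, limma-voom and the block on calf called 0 members too. At an unadjusted p under 0.05 DESeq2 had 1 member and 350 genes, limma-voom 2 members and 1317 genes, and the block 7 members and 1251 genes.

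J and H-F calves were compared at d 1, on libraries that took no part in the selected change, though they came from the same calves. The fit took its spread from all 48 libraries with no calf term, so its p-values treat the 3 libraries of a calf as independent. They can therefore be too small. A gene was called differentially expressed (DEG) where its adjusted p was under 0.1 and the breeds differed by 1.5-fold or more. In J calves 8 members were transcriptionally increased relative to H-F calves, where 3.77% of all genes tested were, and 2 members were decreased, where 2.22% of all genes were. Without the fold threshold 11 members were higher in J, where 17.6% of all genes were, and 6 were lower, where 13.8% of all genes were. PTX3 is in both counts of decreased members. It entered the set only through H-F calves, so its call is not read as a test result. Of the 10 members called with the fold threshold, 8 have a name. Members have a name here only because the study listed them as differing between breeds in these samples. Their share of calls is therefore not independent evidence. Among the 54 members without a name, 2 were called, ENSBTAG00000005170 and ENSBTAG00000012205.

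The 2 members counted as decreased in J calves were PDGFRA and PTX3. PDGFRA had 1.03 to 7.95 CPM in H-F and 0.283 to 3.79 CPM in J calves, and its log2 fold change was -1.56 ± 0.46 (SE) with an adjusted p of 0.0164 by edgeR's quasi-likelihood test. PTX3 met the rule's minimum of 1 CPM only through H-F calves, with a mean of 2.89 CPM over H-F and 0.573 CPM over J libraries, so its lower value in J calves is given as a description with no test. At d 1 it had 0.473 to 6.92 CPM (median 1.82) in H-F and 0.212 to 1.64 CPM (median 0.611) in J calves. The breeds overlapped for both PDGFRA and PTX3. ENSBTAG00000010652 met the minimum of 1 CPM only through J calves, with means of 0.929 CPM over H-F and 1.15 CPM over J libraries. It was not called. CFB was lower in J calves by a log2 fold change of -0.52 ± 0.19 (adjusted p = 0.0401), which is below the fold threshold, and IFIT3 (-0.28 ± 0.24), GLT1D1 (-0.45 ± 0.26) and CD274 (0.01 ± 0.26) did not pass the adjusted p.

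Among the members increased in J calves, ENSBTAG00000005170 had the smallest adjusted p. It had 16.03 to 31.9 CPM (median 25.9) in H-F and 20.7 to 88.4 CPM (median 46.4) in J calves, a log2 fold change of 0.94 ± 0.21 (adjusted p = 0.00309). GSDMB had a log2 fold change of 1.06 ± 0.25 (adjusted p = 0.00451) and KCNN4 of 0.94 ± 0.23 (adjusted p = 0.00541). For ENSBTAG00000024947 it was 0.77 ± 0.21 (adjusted p = 0.0097), for C7ORF72 1.07 ± 0.33 (adjusted p = 0.0201), for ADGRF1 0.76 ± 0.24 (adjusted p = 0.0248) and for SLC9A5 1.16 ± 0.38 (adjusted p = 0.0287). In each of these genes the values of the breeds overlapped, and the highest were of J calves.

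Without J calf 85, 6 members were increased and 2, again with PTX3, decreased, while 1.89% and 1.84% of all genes were called in these directions. ENSBTAG00000012205 lost its call (log2 fold change 0.38, adjusted p = 0.213), as did C7ORF72 (0.72, adjusted p = 0.112). GSDMB and SLC9A5 stayed called with smaller fold changes of 0.67 (adjusted p = 0.0142) and 0.66 (adjusted p = 0.0744), and PDGFRA had -1.50 (adjusted p = 0.0431). Without J calf 9, ENSBTAG00000012205 again lost its call (0.54, adjusted p = 0.128).

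**Figure D4:**
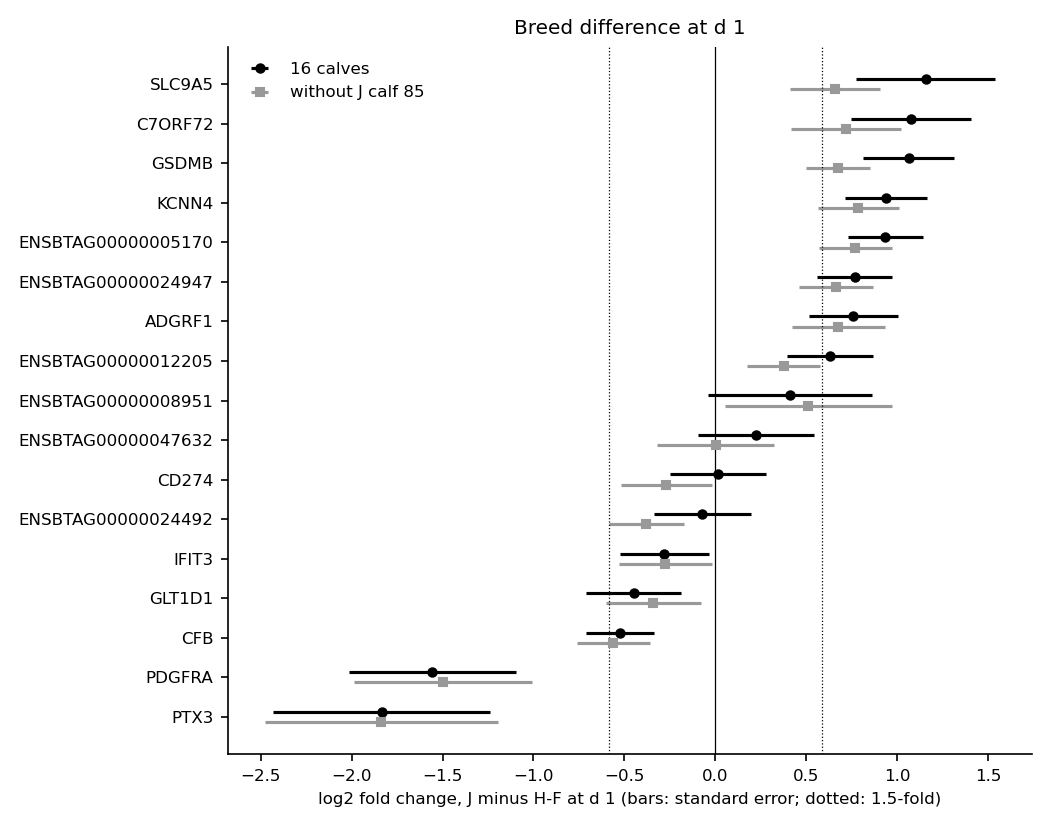
Breed difference at d 1 as the log2 fold change of J over H-F for 17 members, as points with SE bars, in all 16 calves (black) and without J calf 85 (grey), with dotted lines at a fold change of 1.5. SLC9A5 and GSDMB move from 1.16 and 1.06 to 0.66 and 0.67 without the calf, and PDGFRA from -1.56 to -1.50. PTX3, which entered the set only through H-F calves, is shown as a description and not as a test result.

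Marker genes of blood cells and of responses could be looked up only where the study lists the gene, so their number is small and each was itself picked by the study for a difference between breeds. Of 19 B cell markers 11 were found, 0 of them members. All 11 had a mean change above 0 at d 8, with a median of 0.16, as did 5994 of 12382 genes, with a median of -0.003. The largest changes were in MS4A1, by 0.32 ± 0.30 and higher in 14 of 16 calves, and CD22, by 0.27 ± 0.32 in 13 of 16. The smallest were in CXCR5 (0.003 ± 0.27) and EBF1 (0.03 ± 0.36), each higher in 8 of 16. None of the 11 was at 0 CPM in any library. Most of their summed CPM came from CD22, MS4A1, CIITA and CD79B, with means of 333, 332, 303 and 235 CPM. VPREB3 and TNFRSF13C, at 8.35 and 5.93 CPM, added little. CIITA also stood in the list for MHC class II presentation, so it is not a marker of B cells alone. The summed CPM of the 11 had lowest, median and highest values of 682, 1091 and 1340 in H-F calves at d -14 and 1047, 1223 and 1407 at d 8. In J calves it had 1164, 1724 and 1939 at d -14 and 1234, 1782 and 2480 at d 8, and it was higher at d 8 in 14 of 16 calves. J calves 9 and 85 had the highest sums at d 1, 2462 and 2548 CPM. Of the 11 markers 4 were DEG with higher values in J calves at d 1 and 0 with lower values, and 0 had an adjusted p under 0.1 against the midpoint.

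Some members varied between libraries together with these B cell markers. After subtraction of each group's mean, the correlation of log2(CPM + 0.5) with the log2 summed CPM of the 11 markers over 48 libraries was above 0.6 for 16 of 67 members, with a median of 0.19 over members and a range of -0.37 to 0.85. These are descriptions over libraries that share calves, 3 from each. The share of all genes above 0.6 was not computed, so the count is not read as particular to the members. KCNN4 had the highest, 0.85, and had 0.82 without J calf 85 and 0.76 without J calves 9 and 85. ADGRF1 had 0.81, C7ORF72 0.79, ENSBTAG00000024947 0.77, GSDMB 0.65 and SLC9A5 0.595. Without J calves 9 and 85 these were 0.77, 0.67, 0.67, 0.45 and 0.41 in the same order. Without J calf 85, 12 members were above 0.6, and without J calves 9 and 85, 10 were. Of the 8 members increased in J calves at d 1, 6 were among the 16, a count with no share of all genes to set beside it. Of these 6, GSDMB and ENSBTAG00000005170 (0.71 in all 48 libraries, 0.56 without J calves 9 and 85) fell below 0.6 without these calves. The 16 had a median change at d 8 of 0.38 and the other 51 had 0.46. The part of the B cell markers in these members' changes was not tested.

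**Figure D5:**
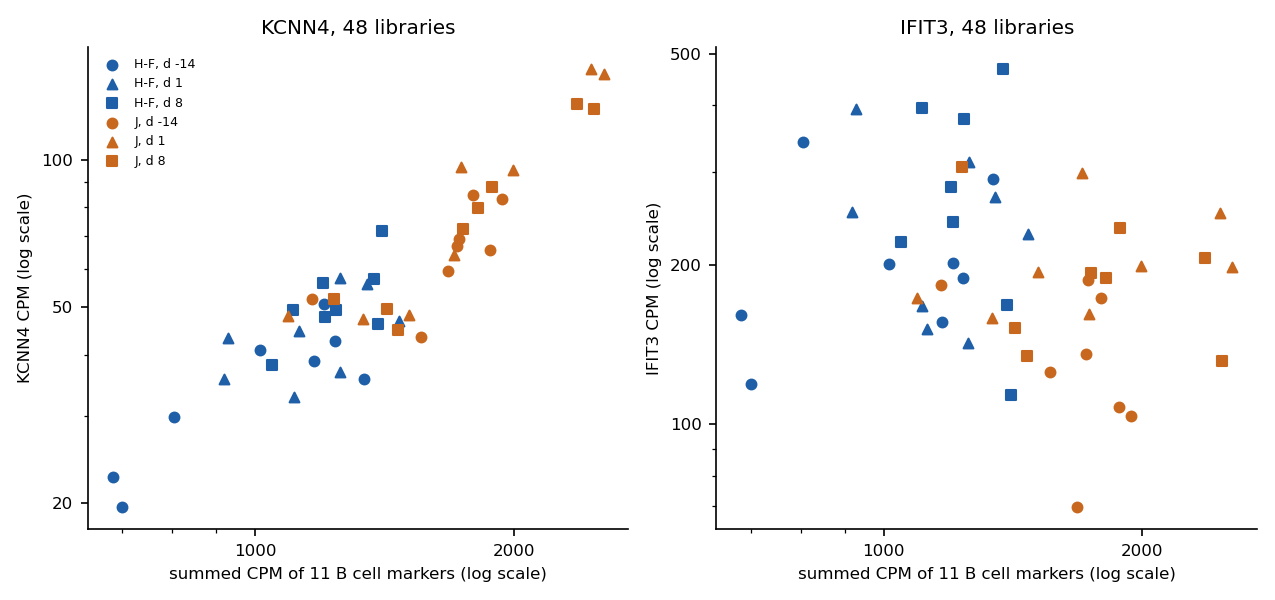
CPM of KCNN4 (left) and IFIT3 (right) against the summed CPM of 11 B cell markers in 48 libraries, both axes on log scales, with H-F in blue, J in orange and d -14, d 1 and d 8 as circles, triangles and squares. KCNN4 rises with the markers up to J calves 9 and 85 at d 1 (153 and 149 CPM), whereas IFIT3 shows no such order. The medians of KCNN4 and of the markers are higher in J than in H-F calves on each day, and the plotted values include that difference. After subtraction of group means the correlation was 0.85 for KCNN4 and -0.03 for IFIT3.

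IFIT3 was the only member in a list of interferon response genes, of which 6 of 22 were found. Of the 6, 5 had a mean change above 0 at d 8, with a median of 0.24. IFIT1 changed by 0.24 ± 0.57, RSAD2 by 0.24 ± 0.84 and ISG15 by 0.26 ± 1.07, with an increase in 12, 10 and 10 of 16 calves, while IFI44 changed by -0.01 ± 0.60. None of the 6 was a DEG between breeds at d 1 or passed against the midpoint in edgeR's quasi-likelihood fit. The correlation of IFIT3 with the log2 summed CPM of the other 5 over 48 libraries, after subtraction of group means, was 0.75, and it was above 0.6 for no other member, except that ENSBTAG00000010665 had 0.60 without J calf 85 and 0.45 with it. With IFIT1 alone it was 0.82, and between IFIT3 and PTX3 it was 0.57.

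The other lists held no member. Of 5 cytotoxic lymphocyte genes found 2 had a mean change above 0, of 4 platelet genes 2, of 2 neutrophil genes 1, and of 7 immediate early and inflammatory genes 1, with a median of -0.12. The log2 summed CPM of the 2 neutrophil genes changed by 0.31 ± 0.54 and was higher in 13 calves. That of the B cell markers changed by 0.20 ± 0.26, of the cytotoxic genes by 0.05 ± 0.25 and of the platelet genes by -0.08 ± 0.38. Correlations of members with the neutrophil, cytotoxic and platelet sums were not computed. MSR1, a scavenger receptor of macrophages and the only monocyte marker found, changed by -0.27 ± 0.27.

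Between members the correlations were mostly weak. Over the 2211 pairs of members the median was 0.17, with 370 pairs above 0.5. GSDMB and SLC9A5 had 0.88, which was 0.77 without J calf 85 and 0.73 without J calves 9 and 85. KCNN4 and C7ORF72 had 0.82 and 0.69 without these calves, and CFB and CD274 had 0.46 and 0.43.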

How the data were processed

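The authors aligned paired end reads of 48 poly(A) libraries to the bovine genome UMD3.1 with STAR, after a quality check in FastQC 0.10.0, kept unique alignments and used HTSeq-count to assign them to Ensembl genes. The deposited values are whole-number counts without normalization. For STAR and HTSeq the version, and for counting the strand setting, is not given in the sources used here, so reads of overlapping or antisense genes could not be told apart. All 48 columns were matched to a calf and day.

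From these counts, CPM was computed on the summed counts of the 24616 genes, without the 92 spike-ins. Genes left out by the rule (3) are not reported here. The tests used edgeR 4.0.16 quasi-likelihood fits in R 4.3.3, with trimmed mean of M-values (TMM) factors and a mean for each of the 6 groups, on the 12717 genes that exceeded 1 CPM in 8 libraries or more. DESeq2 1.42.0 and limma-voom (limma 3.58.1) were alternatives. Counting error was small at these depths except near 1 CPM, where the spread between calves also grows. The procedures were tested on simulated data. Tables used Python 3.11.15, numpy 2.4.6 and pandas 2.3.3, and figures matplotlib 3.10.9.

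Calf numbers in the labels pair the libraries, which came from the same animals. After removal of group means, libraries of a calf had correlations of 0.406 to 0.90 and those of different calves -0.67 to 0.456. The study used no calf term, so calf entered only in alternatives. It was a block in the contrasts against the midpoint and a random effect in limma-voom.

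The members and gene lists were chosen with earlier results of these data known. Members were named if they had 1 of the 10 largest mean changes, 1 of the 5 highest mean CPM, lay within 3 of the threshold, were among up to 5 called in each direction or stood in a gene list, with at most 2 unnamed identifiers for each. All 13 members that had a name were also described, a choice made after their values were seen. Names came from the study's lists of DEG, which name 797 identifiers, and a table of RefSeq genes matched 0 of the identifiers. Genomic positions and sequences were not used here. A B cell marker of the lists is not reported here and was left out of the marker sums.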

Additional observations from a re-analysis of the deposited data

Results flagged for a closer look

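In the 13 members with a name, each of the 6 groups of 8 calves was examined on log2(CPM + 0.5) for a sample far from the others, and 4 of 78 groups had one, where chance gives about 1 in 20. PTX3 was 2.26 CPM in J calf 60 at d 8, where the other J calves had 0.28 to 0.686 CPM. SLC9A5 was 26.5 CPM in J calf 85 at d 8, where the others had 2.23 to 7.14 CPM. CD274 was low before weaning in a calf of each breed. It was 7.12 CPM in H-F calf 56 at d -14, where the others had 11.5 to 17.3 CPM, and 5.14 CPM in J calf 13 at d -14, where the others had 8.36 to 11.05 CPM.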

How the results depend on the processing

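The count of members was 65 with TMM library sizes (63 shared with the 67), 86 and 45 with pseudocounts of 0.1 and 2, 75 without the filter on mean CPM, 31 with a mean CPM of at least 10 (fewer genes could enter), and 59 to 111 with each calf left out, the highest without J calf 77. Scaled to the spike-ins, 13 genes passed, 12 of them shared. That scaling moved the median change of all genes to -0.18, and the members' median from 0.44 to 0.28, which is 0.46 relative to all genes, with all 67 members above 0. The cause of the shift was not tested. In the pairing fit with calf as replicate block, the members called against the midpoint and in its breed difference stayed at 0, as they did in every other alternative run. The block was not run on the breed comparison at d 1, where all calls among members were made. In the breed comparison at d 1, members increased in J ranged from 6 to 11 and members decreased from 2 to 5 with each calf left out. The decreased counts of each alternative include PTX3, whose call is not read as a test result. The 5 came without J calf 60 and added GLT1D1 and 2 genes without a name. With no fold-change threshold there were 11 and 6, beside 17.6% and 13.8% of all genes. DESeq2 called 9 and 2, limma-voom (calf as random effect) 7 and 2, the d 1 libraries alone 7 and 2, and the edgeR exact test 9 and 2. CD274, which was not called, changed sign without the filter on low counts (-0.0069), in limma-voom (-0.0603) and with single calves left out (-0.27 to 0.20), and ENSBTAG00000024492, not called either, ran from -0.379 to 0.0427 with single calves left out. Genes near 1 CPM, such as PTX3, rest on few counts per library. The counts of members above the midpoint and of members with a correlation above 0.6 to the B cell markers, without J calf 85 and without J calves 9 and 85, were added after seeing the data.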

Other observations

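Genes in the lists that are not members gave the following d 8 minus d -14 changes, chosen for mention after their values were seen and given with no test. GZMB, a granule protease of cytotoxic lymphocytes, changed by 0.47 ± 0.60 and was higher in 13 of 16 calves, so it passed the mean change and missed the count of calves. GZMA, a protease of the same granules, changed by -0.16 ± 0.56. CXCR2, a chemokine receptor of neutrophils that made up nearly all of the neutrophil sum above, changed by 0.33 ± 0.54 and was higher in 13 of 16 calves. PTGS2, the inducible cyclooxygenase, changed by -0.46 ± 0.57 and was higher in 4 of 16 calves. IL1R2, a decoy receptor for interleukin-1 that glucocorticoids induce, changed by -0.39 ± 0.42 and was higher in 2 of 16 calves.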
